A study of Drosophila melanogaster with 8 samples.

Results

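The circadian clock genes of the fly were followed in RNA-seq of adult heads: *per*, *tim*, *Clk*, *cyc*, *vri*, *Pdp1*, *cwo*, *cry*, *dbt* and *Pdf*. These 10 genes were listed by name from the 16727 gene symbols in the count files, with earlier results of these data known. Of the 10, 9 were found under these symbols and *dbt* was found under its other symbol, *dco*. The heads came from 4 libraries labelled w1118, the control stock, and 4 labelled Top3b26, a mutant of the topoisomerase gene *Top3β* made by remobilizing a p-element. All flies were adults of 1 to 2 weeks, grown at 25 °C under 12 h of light and 12 h of dark. The light cycle and the stated age range were thus the same in every group, and ages within that range are not given. Neither the sex of the flies nor the hour at which heads were frozen is given in the sources used here. The labels number the replicates 1 to 4 in each genotype and do not say whether these came from separate cultures, so p-values measure the spread between these samples.

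The fly clock is a feedback loop of transcription. The proteins CLK and CYC pair to switch on *per*, *tim*, *vri*, *Pdp1* and *cwo*, and PER and TIM then enter the nucleus and block CLK and CYC. A second loop, in which VRI represses and PDP1 activates *Clk*, makes *Clk* RNA peak near dawn, while *per*, *tim* and *vri* RNA is high from dusk into the early night. In the head much of the clock RNA comes from photoreceptors, glia and fat body, and only a small group of brain neurons drives daily activity. RNA of *Clk* and *cry* is thus known as a dawn pair, RNA of *per*, *tim*, *vri*, *Pdp1* and *cwo* as a dusk group, and RNA of *cyc*, *dbt* and *Pdf* as having little daily rhythm.

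The libraries held 3301976 to 7591510 counts on genes, so that 3 counts equalled 0.395 to 0.909 CPM (counts scaled to the library's gene total), a limit set by counting error alone. RNA of *Top3β* did not fall in the libraries labelled Top3b26. It was 42.3 to 91.6 CPM there and 23.8 to 40.6 CPM in those labelled w1118 (log2 fold change 0.90, standard error 0.24, adjusted p = 0.16; p-values are from the quasi-likelihood test of edgeR, adjusted after Benjamini and Hochberg unless another test is named). Genotype names below are therefore those of the labels, and each genotype direction rests on them. A header line is found in the files of replicates 1 and 2 but in none of replicates 3 and 4, and the libraries were compared between these sets as well as between genotypes. The share of multiply aligned reads was 23.7% to 30.4% in replicates 1 and 2 and 16.6% to 20.1% in replicates 3 and 4. Libraries of some groups stood apart in cell type markers. The summed level of 6 photoreceptor genes (*ninaE*, *Arr1*, *Arr2*, *trp*, *trpl* and *inaD*) was 1623 to 1747 CPM in replicates 1 and 2 labelled Top3b26, 40821 to 45484 CPM in replicates 1 and 2 labelled w1118, 27561 to 30432 CPM in w1118 replicates 3 and 4, and 19853 to 24723 CPM in Top3b26 replicates 3 and 4. None of the 6 was at 0 in any library. The summed level of 6 fat body genes (*Yp1*, *Yp2*, *Yp3*, *Lsp2*, *fit* and *Obp99b*) was 34859 to 47338 CPM in w1118 replicates 3 and 4 and 7702 to 15230 CPM in the other 6 libraries, with none at 0. Neuron and glia markers were present in all libraries, and summed gut and testis markers reached 5.21 CPM at most. The glia marker *alrm* was 10.8 to 14.5 CPM in w1118 replicates 1 and 2 and 42.2 to 92.3 in the other libraries. *moody* was also lowest in that group, at 49.7 to 57.0 CPM. *repo* was 78.8 to 86.7 CPM in Top3b26 replicates 1 and 2 and 35.2 to 48.6 elsewhere, and *Eaat1* was 355 to 493 CPM throughout. The part of glia RNA in the clock gene values was not tested.

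All 10 clock genes were protein-coding and passed the filter on low counts, which kept 9633 genes. The lowest count of any of them in any library was 96, for *Pdf*. In CPM per kb of exon, averaged over the 8 libraries, *Pdp1* was the highest at 149 (range 111 to 192), and its range did not overlap that of the next gene. The others followed as *Pdf* at 56.5 (25.0 to 87.1), *tim* at 51.6 (27.9 to 106), *cry* at 47.4 (28.6 to 61.9), *dbt* at 41.5 (35.2 to 47.6), *vri* at 30.9 (14.2 to 59.2), *cwo* at 22.4 (18.0 to 28.8), *cyc* at 20.8 (14.2 to 28.7), *per* at 20.7 (6.75 to 44.7) and *Clk* at 10.8 (5.27 to 16.9). The ranges of neighbours overlapped at every step after *Pdp1*. Within these ranges *per* differed most between libraries and *dbt* and *cwo* least.

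Between genotypes, no clock gene passed the test over all 8 libraries. Calls required a change of 1.5-fold or more with an adjusted p of 0.05 or less, and 0 of the 10 met this, where 0.914% of all tested genes did. DESeq2 and limma voom also called 0 of the 10. At an unadjusted p under 0.05 edgeR listed 1 of the 10, against 12.4% of all genes: *Pdp1* (-0.39 on the log2 scale, standard error 0.17, adjusted p = 0.40). With the replicate number as a block, edgeR called 3.82% of all genes and still 0 of the 10. With both w1118 libraries of replicates 3 and 4 left out, *per* (-1.46, adjusted p = 0.038) and *tim* (-1.37, adjusted p = 0.0098) were called, 2 of the 10 against 1.55% of all genes, but this fit sets w1118 replicates 1 and 2 against Top3b26 libraries of both sets. Over all 8 libraries no clock gene separated all libraries of one genotype from all of the other, against 10.2% of all tested genes. The median log2 fold change of the 10 was -0.24, and that of all genes tested was -0.01.

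Between the sets of replicates the same genes moved far more. In the model of genotype and set, 6 of the 10 were called where 18.6% of all tested genes were: *per*, *tim*, *vri* and *Pdf* were lower in replicates 3 and 4, and *Clk* and *cry* were higher. The libraries of replicates 3 and 4 lay wholly to one side of those of replicates 1 and 2 for 7 of the 10, these 6 and *cyc*, against 31% of all tested genes. For each of the 7 the exact two-sided permutation test on log2(CPM + 1) gave p = 0.0286, the smallest that 4 against 4 allow. Each set is a single group of libraries. All p-values of set differences therefore measure the spread between libraries, not between repeated sets. In w1118 alone 6 of the 10 were called, against 19.1% of all genes, and in Top3b26 alone 4 of the 10, against 20.1%. The genotype effect itself differed between the sets for 5 of the 10, *per*, *tim*, *vri*, *Pdp1* and *cry*, against 6.93% of all genes. These contrasts share libraries: w1118 replicates 1 and 2 enter the set difference in w1118, the genotype effect in replicates 1 and 2 and the difference of genotype effects. In whole heads fewer cells of a type and less RNA per cell cannot be told apart, and this holds for each value below.

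**Figure D1:**
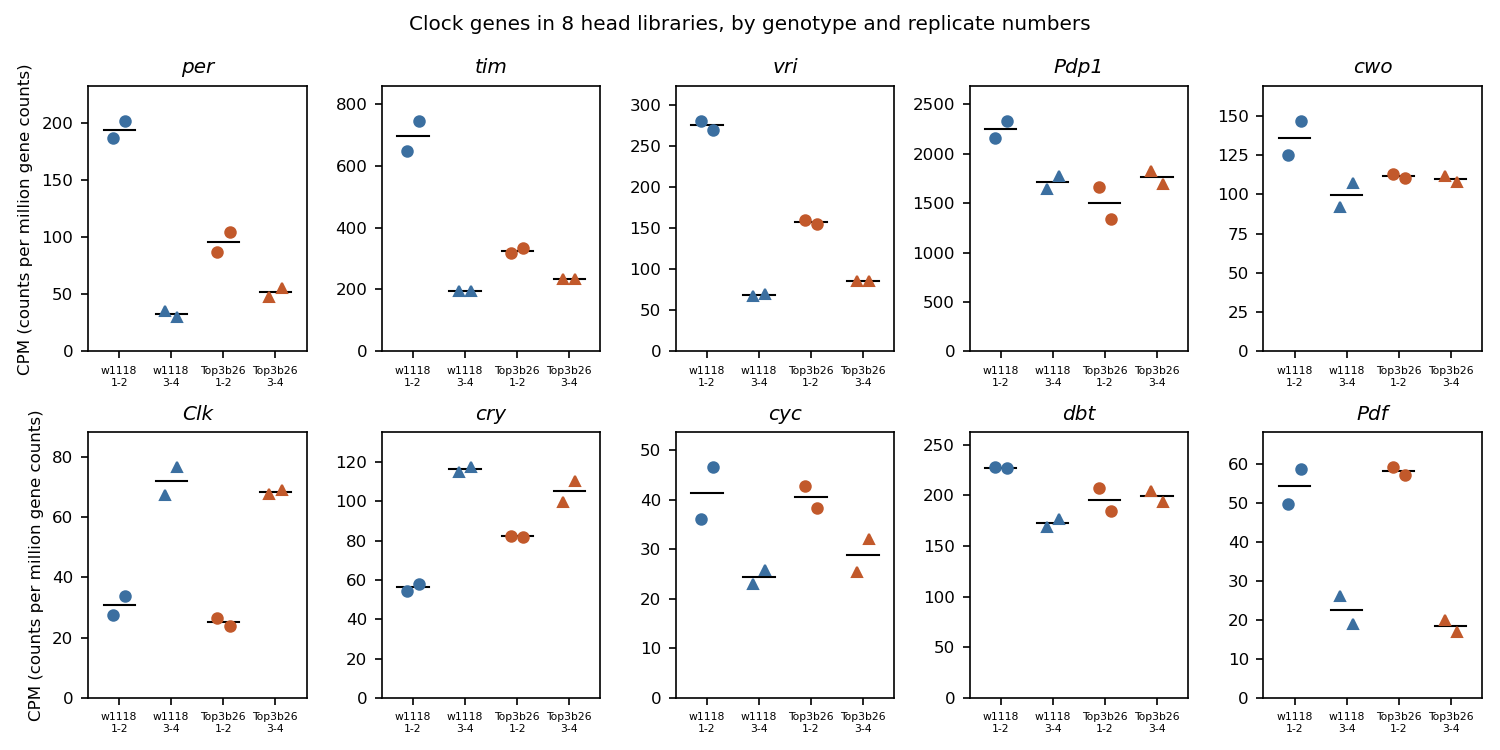
Level in CPM (vertical axis, linear, from 0) of the 10 clock genes in each of the 8 head libraries, split by genotype (w1118 blue, Top3b26 orange) and replicate numbers (1 and 2 circles, 3 and 4 triangles). Points are single libraries and black lines are means of 2 libraries. Replicates 3 and 4 sit below replicates 1 and 2 for *per*, *tim*, *vri*, *cyc* and *Pdf* and above them for *Clk* and *cry*.

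Of the repressors of the loop, *per* had the widest span of the 10 genes as the ratio of its highest to its lowest CPM. The gene *per* (FBgn0003068, X 2685580 to 2692780, dm6, plus strand, 8 exon blocks, of which 49 bases overlap the opposite-strand gene *dyw*) encodes the PERIOD repressor. Its level was 187 and 202 CPM in w1118 replicates 1 and 2, 35.4 and 30.6 in w1118 replicates 3 and 4, 87.3 and 105 in Top3b26 replicates 1 and 2, and 47.5 and 56.0 in Top3b26 replicates 3 and 4. The sets did not overlap, and w1118 held both the highest and the lowest libraries. In w1118 the mean of replicates 1 and 2 was 5.90 times that of replicates 3 and 4, and in Top3b26 it was 1.85 times. The set difference was -2.40 on the log2 scale in w1118 (standard error 0.14, adjusted p = 7.6e-10, edgeR) and -0.72 in Top3b26 (0.13, adjusted p = 0.00057). The genotype effect on *per* was opposite in sign in the sets: -1.15 in replicates 1 and 2 (0.13, adjusted p = 5.3e-06) and 0.54 in replicates 3 and 4 (0.14, adjusted p = 0.022, under 1.5-fold with TMM factors and so not called; the mean CPM were 1.57-fold apart). The difference of the genotype effects was 1.68 (0.19, adjusted p = 1.4e-05).

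The gene *tim* (FBgn0014396, 2L 3493986 to 3508119, minus strand) encodes TIMELESS, the partner that stabilises PER and that light destroys. A share of 9.89% of its exon bases overlaps *lncRNA:CR46495* on the other strand and a small nucleolar RNA gene, so its reads are in part uncertain, since the strand setting of the counting is not given in the sources used here. It stood at 648 and 745 CPM in w1118 replicates 1 and 2, 196 and 197 in w1118 replicates 3 and 4, 317 and 333 in Top3b26 replicates 1 and 2, and 234 and 233 in Top3b26 replicates 3 and 4. Replicates 1 and 2 were all above replicates 3 and 4, with the w1118 libraries the highest and also the lowest. The set difference was -1.66 in w1118 (standard error 0.11, adjusted p = 4.2e-09) and -0.30 in Top3b26 (0.11, adjusted p = 0.040, not called since the fold was under 1.5). The genotype effect was -1.23 in replicates 1 and 2 (0.11, adjusted p = 2.9e-07) and 0.13 in replicates 3 and 4 (adjusted p = 0.62), and the 2 effects differed by 1.36 (0.15, adjusted p = 1.4e-05).

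The activators did not move together. *Clk* (FBgn0023076, 3L 7763233 to 7775603, minus strand), which encodes the CLOCK activator, was 27.5 and 33.9 CPM in w1118 replicates 1 and 2, 67.2 and 76.5 in w1118 replicates 3 and 4, 26.6 and 23.8 in Top3b26 replicates 1 and 2, and 67.5 and 68.8 in Top3b26 replicates 3 and 4. Replicates 3 and 4 lay above replicates 1 and 2 in both genotypes, and within replicates 3 and 4 the genotypes overlapped. *Clk* rose by 1.51 over the sets (standard error 0.11, adjusted p = 3.4e-06), by 1.41 in w1118 and by 1.61 in Top3b26, and the genotype effects of the sets differed by 0.20 (0.21, adjusted p = 0.66). The partner gene *cyc* (3L 19813770 to 19815938, minus strand) went the other way. It was 36.3 and 46.6 CPM in w1118 replicates 1 and 2, 23.0 and 25.9 in w1118 replicates 3 and 4, 42.9 and 38.3 in Top3b26 replicates 1 and 2, and 25.5 and 32.2 in Top3b26 replicates 3 and 4. The sets did not overlap for *cyc*, with a difference of -0.44 (0.13, adjusted p = 0.020) that stayed under the fold threshold and was not called. With library totals in place of TMM factors it was -0.61 (adjusted p = 0.0033) and called, which made 7 of the 10, against 21.7% of all genes.

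In the second loop *vri* was called by set (-1.27, adjusted p = 0.0005) and *Pdp1* was not (0.09, adjusted p = 0.66). *vri* (2L 5288944 to 5311223, plus strand) encodes the repressor VRILLE. It was 281 and 269 CPM in w1118 replicates 1 and 2, 67.3 and 69.8 in w1118 replicates 3 and 4, 159 and 155 in Top3b26 replicates 1 and 2, and 85.7 and 85.4 in Top3b26 replicates 3 and 4. The order of the 4 pairs of libraries was that of *per* and *tim*, and no pair overlapped another. The set difference was -1.84 in w1118 (standard error 0.11, adjusted p = 9.9e-10) and -0.70 in Top3b26 (0.11, adjusted p = 8.5e-05). The genotype effect was -0.94 in replicates 1 and 2 (0.10, adjusted p = 5e-06) and 0.20 in replicates 3 and 4 (0.11, adjusted p = 0.38), a difference of 1.14 (0.15, adjusted p = 8.2e-05).

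*Pdp1* (3L 7811458 to 7867369, minus strand, 13 transcripts) encodes the activator of *Clk*, and it also has isoforms used in muscle and fat body. Gene-level counts do not tell the isoforms apart. It was 2159.9 and 2336 CPM in w1118 replicates 1 and 2, 1648 and 1779.6 in w1118 replicates 3 and 4, 1663 and 1342 in Top3b26 replicates 1 and 2, and 1824 and 1699 in Top3b26 replicates 3 and 4. The w1118 libraries of replicates 1 and 2 lay above all others, and the sets overlapped once Top3b26 was included. The genotype effect was -0.71 in replicates 1 and 2 (standard error 0.12, adjusted p = 0.00043) and -0.08 in replicates 3 and 4 (0.12, adjusted p = 0.80). Their difference of 0.63 (0.17, adjusted p = 0.029) was called in 3 of 8 fits that left out 1 library and lost without w1118 replicate 2, 3 or 4 or Top3b26 replicate 2 or 3, with values between 0.53 and 0.81. With the replicate block it was 0.64 with an adjusted p of 0.10. The summed muscle markers *Mhc*, *Act88F*, *up* and *wupA* stood at 1685 to 1902 CPM in w1118 replicates 1 and 2, 4580 to 4875 in w1118 replicates 3 and 4, 2536 to 2590 in Top3b26 replicates 1 and 2, and 6259 to 6645 in Top3b26 replicates 3 and 4. *Mhc*, *up* and *wupA* were higher in replicates 3 and 4 in both genotypes. *Act88F* was higher there in w1118 (4.92 to 5.27 CPM, against 1.74 to 3.33 in replicates 1 and 2). In Top3b26 *Act88F* went the other way, at 17.2 to 18.7 CPM in replicates 1 and 2 and 7.21 to 8.10 in replicates 3 and 4. None of the muscle markers was at 0, and their part in the level of *Pdp1* was not tested.

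*cwo* (3R 10388258 to 10400752, plus strand) encodes a repressor that competes at CLK and CYC target genes. It changed little, with 125 and 147 CPM in w1118 replicates 1 and 2, 91.8 and 107 in w1118 replicates 3 and 4, 113 and 110.2 in Top3b26 replicates 1 and 2, and 111 and 108 in Top3b26 replicates 3 and 4. The w1118 libraries of replicates 1 and 2 lay above all others, as for *Pdp1*, and those of replicates 3 and 4 lay below all others. The Top3b26 groups overlapped each other. Its set difference was -0.07 (standard error 0.11, adjusted p = 0.66). In replicates 1 and 2 the genotype effect was -0.41 (0.12, adjusted p = 0.027), under the fold threshold.

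The light input gene *cry* (3R 19212154 to 19215442, plus strand) encodes the blue-light photoreceptor that brings about TIM breakdown. Its exon bases overlap *lncRNA:CR46393* on the same strand and *vib* on the other for 17.8% of their length, so part of its reads is uncertain. It was 54.3 and 58.1 CPM in w1118 replicates 1 and 2, 115.1 and 117 in w1118 replicates 3 and 4, 82.6 and 81.8 in Top3b26 replicates 1 and 2, and 99.9 and 110.2 in Top3b26 replicates 3 and 4. As for *Clk*, replicates 3 and 4 lay above replicates 1 and 2, but here the w1118 libraries spanned the wider range, in mirror image to *per*, *tim* and *vri*. The set difference was 1.22 in w1118 (standard error 0.12, adjusted p = 4.5e-07) and 0.53 in Top3b26 (0.11, adjusted p = 0.0018, under the fold threshold). The genotype effects of the sets differed by -0.69 (0.16, adjusted p = 0.013). That call held in 4 of 8 fits that left out 1 library and was lost without w1118 replicate 4 or Top3b26 replicate 1, 2 or 3, with values from -0.76 to -0.61.

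The kinase gene *dbt* (3R 31054085 to 31061210, minus strand), whose product marks PER for breakdown, was not called by set or by genotype. It was 228 and 227 CPM in w1118 replicates 1 and 2, 168 and 177 in w1118 replicates 3 and 4, 207 and 185 in Top3b26 replicates 1 and 2, and 205 and 193 in Top3b26 replicates 3 and 4. The sets overlapped, with a difference of -0.02 (standard error 0.10, adjusted p = 0.90). Within w1118 alone they did not overlap (-0.23, 0.11, adjusted p = 0.11, edgeR). In replicates 1 and 2 the genotype effect on *dbt* was -0.35 (0.11, adjusted p = 0.032), under the fold threshold. The output gene *Pdf* (3R 26455462 to 26456141, minus strand, 1 exon) encodes the peptide that clock neurons of the lateral brain release. It was 49.9 and 58.8 CPM in w1118 replicates 1 and 2, 26.0 and 19.1 in w1118 replicates 3 and 4, 59.2 and 57.3 in Top3b26 replicates 1 and 2, and 19.9 and 17.0 in Top3b26 replicates 3 and 4. Replicates 1 and 2 were above replicates 3 and 4 in both genotypes, which overlapped within each set. The set difference of *Pdf* was -1.29 (0.13, adjusted p = 3.5e-05), -1.10 in w1118 and -1.49 in Top3b26, and the genotype effects of the sets differed by -0.39 (0.23, adjusted p = 0.38). Summed neuron markers (*elav*, *nSyb*, *Syt1* and *brp*) were 4115 to 5102 CPM in replicates 1 and 2 and 5544 to 7119 CPM in replicates 3 and 4. Of these 4, *nSyb* and *Syt1* were called higher by set with TMM factors, and 0 with library totals or upper-quartile factors. The part of neuron RNA in the level of *Pdf* was not tested.

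**Figure D2:**
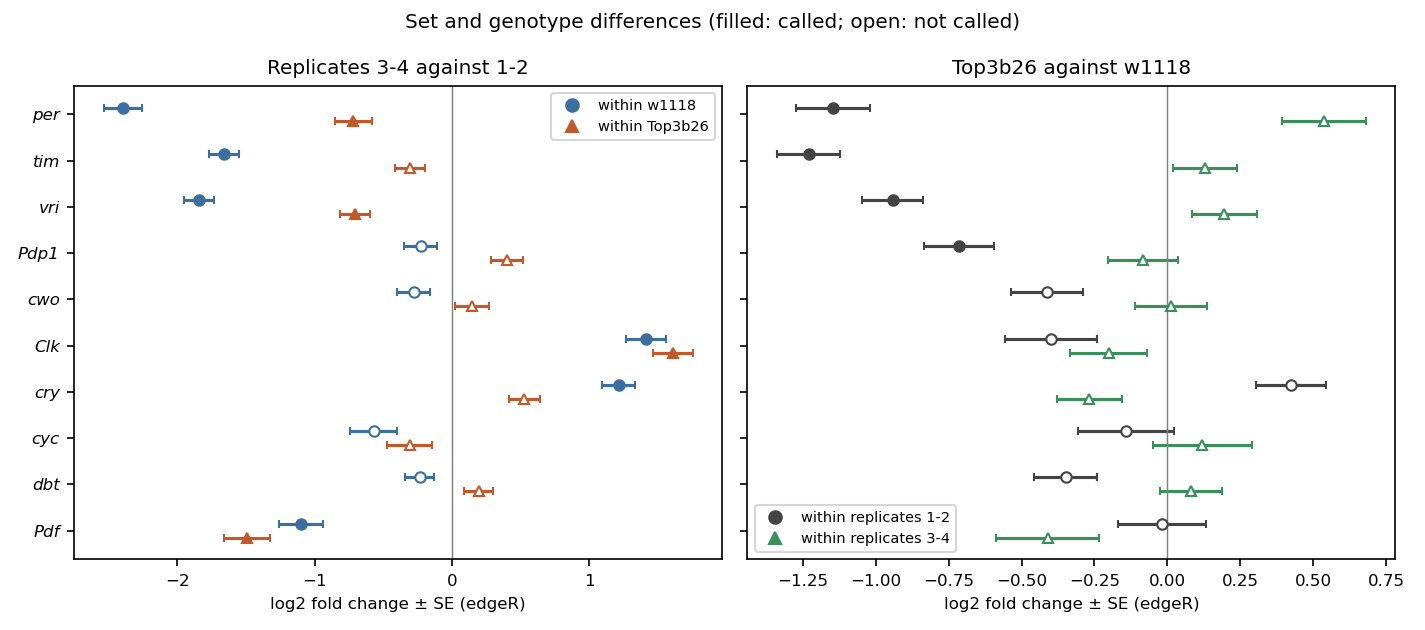
Log2 fold changes (horizontal axis) of the 10 clock genes with standard errors from edgeR. On the left replicates 3 and 4 are set against 1 and 2 within each genotype, and on the right Top3b26 against w1118 within each set; filled symbols are called. For *per* the set difference runs from -2.40 in w1118 to -0.72 in Top3b26, while *Clk* is 1.41 and 1.61.

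Within a library, ratios of raw counts do not depend on scaling. The ratio of *tim* to *Clk* counts was 23.5 and 22.0 in w1118 replicates 1 and 2, 11.9 and 14.0 in Top3b26 replicates 1 and 2, 2.92 and 2.57 in w1118 replicates 3 and 4, and 3.47 and 3.39 in Top3b26 replicates 3 and 4. The ratio of *per* to *Clk* was 6.78 and 5.96, then 3.28 and 4.40, then 0.53 and 0.40, then 0.70 and 0.81 in the same order, so *per* had fewer counts than *Clk* in replicates 3 and 4 only. The ratio of *vri* to *Clk* ran from 10.2 and 7.94 through 6 and 6.50 to 1.00 and 0.91 and to 1.27 and 1.24. In all 3 ratios the 4 libraries of replicates 1 and 2 were above the 4 of replicates 3 and 4, and the genotype order was reversed between the sets. The mean log2(CPM + 1) of the 5 dusk genes less that of the 2 dawn genes was 3.31 and 3.23 in w1118 and 2.34 and 2.41 in Top3b26 for replicates 1 and 2, and 0.75 and 0.68 in w1118 and 1.14 and 1.06 in Top3b26 for replicates 3 and 4. The difference between the sets was therefore wider in w1118 than in Top3b26. The mean of *cyc*, *dbt* and *Pdf*, the group with little daily rhythm, also separated the sets. It was 6.23 to 6.44 in replicates 1 and 2 and 5.52 to 5.61 in replicates 3 and 4. Of the dusk genes, *Pdp1* (0.09) and *cwo* (-0.07) were not called by set (adjusted p = 0.66 for both, edgeR), whereas *Pdf* was (-1.29). These means use the groups given as background above, and no collection time was available to test them.

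**Figure D3:**
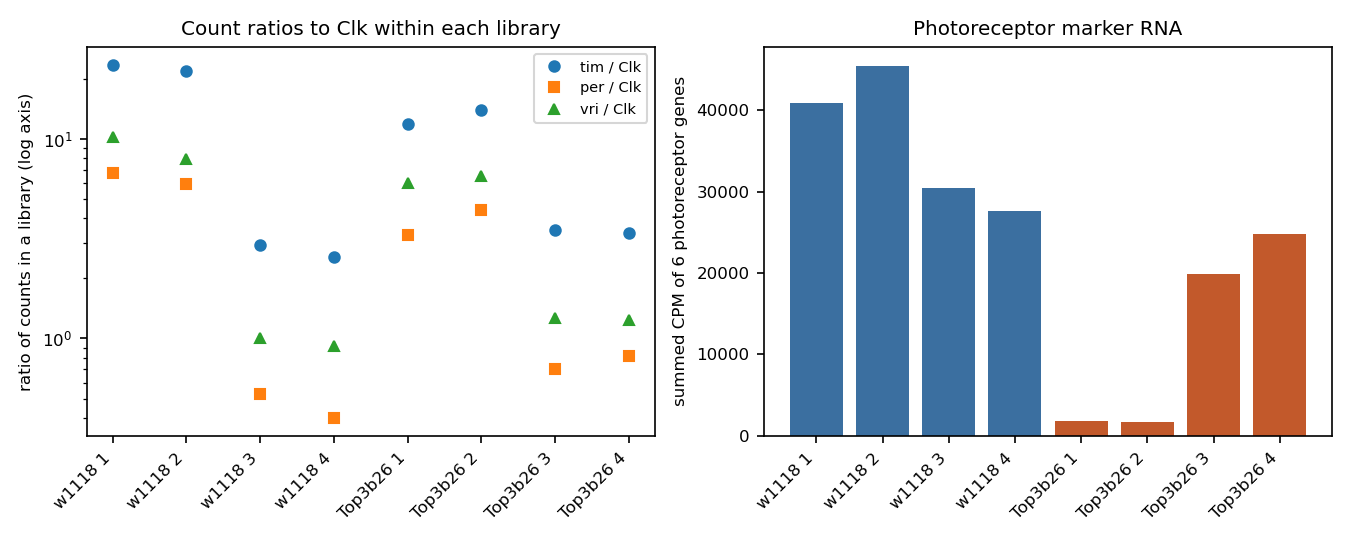
Left, ratios of *tim*, *per* and *vri* counts to *Clk* counts in each library on a log axis. Right, summed CPM of 6 photoreceptor genes in each library, as bars from 0. The ratios are high in replicates 1 and 2, where *tim* to *Clk* reaches 23.5, and the photoreceptor sum is lowest, 1623 to 1747 CPM, in Top3b26 replicates 1 and 2.

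The libraries labelled Top3b26 replicates 1 and 2, which stood apart in photoreceptor RNA, enter all 4 genotype calls within replicates 1 and 2: *per*, *tim*, *vri* and *Pdp1* were lower there, 4 of the 10 against 11.5% of all genes. In the same contrast the photoreceptor genes fell in 6 of 6, with *ninaE*, the main rhodopsin, at -5.65. Photoreceptors are among the cells known to run this clock, and their part in the 4 calls was not tested. In replicates 3 and 4 alone 0 of the 10 were called by edgeR, against 6.71% of all genes, 3 of the 10 had an unadjusted p under 0.05 (*per*, *cry* and *Pdf*), where 19.4% of all genes did, and 3 of 6 photoreceptor genes were lower. The set comparison within w1118 does not use these libraries, and the changes of *per*, *tim*, *vri* and *cry* were wider in it than within Top3b26. In it 2 of 6 photoreceptor genes were lower in replicates 3 and 4, against 6.1% of all genes. With both of these libraries left out, an alternative added after the data were seen, the set difference was called for 7 of the 10, the 6 above and *cyc* at -0.60, against 19.6% of all genes.

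The comparison within w1118 does use w1118 replicates 3 and 4, which stood apart in fat body RNA. There 5 of 6 fat body genes rose and *Obp99b* fell, with a median log2 fold change of 2.12, while within Top3b26 *Obp99b* alone rose and the other 5 were not called. Of all genes 19.1% were called within w1118 and 20.1% within Top3b26. With both w1118 libraries of replicates 3 and 4 left out, also added after the data were seen, the set difference rests on Top3b26 and was called for 4 of the 10, *per*, *Clk*, *vri* and *Pdf*, against 19.3% of all genes. *tim* was then -0.30 (adjusted p = 0.069) and *cry* 0.53 (adjusted p = 0.0032, under the fold threshold). The part of fat body RNA in the clock gene values was not tested. Most of the fat body sum was yolk protein RNA. In w1118 replicates 3 and 4 *Yp1*, *Yp2* and *Yp3* averaged 17226, 8792 and 11233 CPM, *Lsp2* 3565, *fit* 277 and *Obp99b* 5.39. The *Yp* genes are female markers too, so fat body and sex values are not separate here. *Yp1* rose in w1118 by 2.23 (standard error 0.23, adjusted p = 9.5e-07) but not in Top3b26 (-0.17, adjusted p = 0.59). The male-specific RNA *roX1* fell by 1.21 in replicates 3 and 4 (0.13, adjusted p = 4.3e-05). The part of sex composition in the clock gene values was not tested.

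Across the 8 libraries, log2(CPM + 1) of *per* and *vri* had a Pearson r of 0.99, *per* and *tim* 0.97, and *tim* and *vri* 0.97. The r of *vri* with *cry* was -0.99, of *tim* with *cry* -0.98 and of *per* with *cry* -0.97. *Clk* had r = 0.79 with *cry* and -0.96 with *Pdf*. These values describe 8 libraries in 4 groups that differ by set, and not independent points. Among all 9633 tested genes, the 3 closest to *tim* by r were *ik2* (0.985), *viaf* (0.982) and *CG4269* (0.981), and *vri* and *per* ranked 13 and 14. The 3 closest to *Clk* were *CR45600* (0.993), *Cks30A* (0.990) and *Osi9* (0.987). The level of *CG4269* was 39.6 and 44.5 CPM in w1118 replicates 1 and 2 and 12.1 and 11.2 in w1118 replicates 3 and 4. That of *CR45600* was 4.75 and 6.06 CPM in w1118 replicates 1 and 2 and 20.5 and 24.8 in w1118 replicates 3 and 4.

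Genes that act beside the clock were taken as lists by role. Of 13 genes for kinases, phosphatases and turnover of clock proteins, 1 was lower in replicates 3 and 4, *CG17282*, listed as *Bdbt*, a binding partner of DBT (-0.63, adjusted p = 0.0064), and 12 were not called, a share near the 6.32% of all genes that were lower. In this list the genotype effect differed between sets for *Usp8*, a ubiquitin protease gene listed as *Ubpy*, by 2.13 (standard error 0.18, adjusted p = 4.9e-07), and for the kinase gene *sgg* by 0.65 (adjusted p = 0.013). In that test 6.93% of all genes were called. *Usp8* stood at 116 to 124 CPM in w1118 replicates 1 and 2, 55.1 to 56.9 in w1118 replicates 3 and 4, 42.9 to 54.0 in Top3b26 replicates 1 and 2, and 90.3 to 106 in Top3b26 replicates 3 and 4. It was thus high in w1118 replicates 1 and 2 and in Top3b26 replicates 3 and 4. Of 10 genes for translation and coactivators, *Hr51*, a nuclear receptor, was lower by set (-1.28, adjusted p = 0.0017), where 6.32% of all genes were. The others were not called.

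Of 7 light and temperature input genes, 3 were higher in replicates 3 and 4, against 12.3% of all genes: *cry*, *qsm* (0.71, standard error 0.10, adjusted p = 0.00045; not called with library totals), which acts in light input to the clock, and *norpA* (1.19, 0.38, adjusted p = 0.031), the phospholipase of vision. The rise of *norpA* lay in Top3b26, where its level was 617 to 676 CPM in replicates 1 and 2 and 2803 to 2956 in replicates 3 and 4, whereas in w1118 it was 3306 to 3353 and 3083 to 3109.9 CPM. In w1118 its set difference was 0.06 (adjusted p = 0.73), and the genotype effects of the sets differed by 2.27 (0.15, adjusted p = 2e-08). *norpA* was thus lowest in the libraries where the photoreceptor sum was lowest. *qsm* stood at 31.8 to 34.8 CPM in w1118 replicates 1 and 2 and 51.5 to 56.4 in w1118 replicates 3 and 4.

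Peptide genes of clock neurons and of neurons that carry their output made up the list with the most calls by set. Of 13 peptide and receptor genes, 8 were lower in replicates 3 and 4, against 6.32% of all genes, and 0 were higher. The median log2 fold change of the list was -0.61, and that of all genes was -0.02. With library totals or upper-quartile factors in place of TMM, 9 were lower and 0 higher. Besides *Pdf*, the 8 called with TMM were *NPF* (-1.33), *hug* (-1.21), *Lk* (-1.20), *CNMa* (-1.09), *AstC* (-0.92), *CCHa1* (-0.61) and *Dh31* (-0.59), with adjusted p from 0.00015 to 0.039 for these 7. *CNMa* was low, at 0.953 to 1.19 CPM in w1118 replicates 3 and 4. Within Top3b26 its sets overlapped (2.39 to 4.13 CPM in replicates 1 and 2, 2.08 to 2.45 in replicates 3 and 4). *CCHa1* was 3.03 to 7.33 CPM throughout. *NPF*, a feeding-related peptide, was 33.1 to 52.1 CPM in w1118 replicates 1 and 2, 15.9 to 18.3 in w1118 replicates 3 and 4, 42.3 to 55.1 in Top3b26 replicates 1 and 2, and 14.0 to 15.8 in Top3b26 replicates 3 and 4. *hug* was 75.2 to 93.3, 37.8 to 40.3, 121 to 126 and 36.5 to 42.8 CPM in the same order. The sets did not overlap for either gene, and neither genotype effect over 8 libraries was called. The receptor of PDF, *Pdfr*, had a set difference of 0.01 (adjusted p = 0.95) and a genotype difference of -0.10 (adjusted p = 0.77). Within w1118 alone 5 of the 13 were called lower, against 6.1% of all genes, and within Top3b26 alone 8, against 7.62%. In edgeR's interaction test 0 of the 13 were called, and 5 had an unadjusted p under 0.05, where 19.6% of all genes did.

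**Figure D4:**
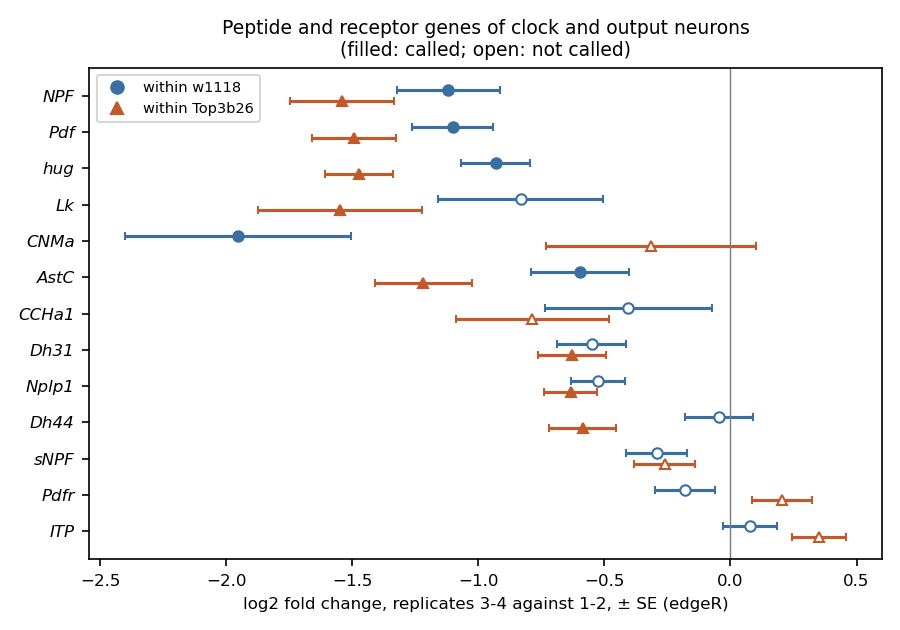
Log2 fold changes (horizontal axis, with standard errors from edgeR) of 13 peptide and receptor genes of clock neurons and their output neurons, replicates 3 and 4 against 1 and 2, within w1118 (blue circles) and Top3b26 (orange triangles). Filled symbols are called: 5 genes in w1118 and 8 in Top3b26, all lower in replicates 3 and 4, while *Pdfr* and *ITP* are not called.

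Of 17 excitability and output genes, *Ugt35b* was higher by set (0.95, standard error 0.19, adjusted p = 0.0025), where 12.3% of all genes were. Lower were *unc79* (-0.63, 0.11, adjusted p = 0.0011) and *unc80* (-0.63, 0.11, adjusted p = 0.0015), against 6.32% of all genes. These 2 encode parts of a sodium leak channel complex. The only list gene outside the members called between genotypes over all 8 libraries was *Cyp4d21*, which was 109 to 174 CPM in Top3b26 and 48.1 to 69.7 CPM in w1118, a log2 difference of 1.11 (0.15, adjusted p = 0.0096). The genotype effects of the sets differed for *Slob*, which encodes a regulator of the potassium channel Slowpoke (1.31, 0.15, adjusted p = 1.8e-05), for *dysc* (0.59, adjusted p = 0.039) and for *Ugt35b* (-1.07, 0.19, adjusted p = 0.0012). In that test 6.93% of all genes were called. *Slob* stood at 631 to 635 CPM in w1118 replicates 1 and 2, 441 to 459 in w1118 replicates 3 and 4, 280.4 to 315 in Top3b26 replicates 1 and 2, and 517 to 527 in Top3b26 replicates 3 and 4. *Ugt35b* was 29.7 to 33.2, 79.1 to 79.3, 35.0 to 35.4 and 40.9 to 42.5 CPM in the same order, so it was high in w1118 replicates 3 and 4 alone. The output gene *to* had a set difference of 0.01 (adjusted p = 0.98) and a genotype difference of 0.26 (adjusted p = 0.51).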

How the data were processed

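RNA-seq of adult heads was analysed in 8 libraries, 4 labelled w1118 and 4 labelled Top3b26. The files hold counts as deposited by the authors: whole numbers of reads on each gene symbol, not normalized, 1 file per library. The labels name TopHat2 2.1.1, SAMtools 1.8 and dm6; the strand setting is not given in the sources used here. The header of w1118 replicate 2 reads CPM, but its values are whole and were used as counts. Reads on no gene (43.1% to 48.9%) and reads with several alignments were left out of library totals.

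Counts were tested with edgeR 4.0.16 in R 4.3.3 (filterByExpr by genotype, TMM, quasi-likelihood test, Benjamini-Hochberg adjustment over 9633 genes), on genotype, on genotype plus set and on their interaction. Thresholds were 0.05 for the adjusted p and 1.5 for the fold. DESeq2 1.42.0, limma 3.58.1, other scalings, filters and left-out libraries were alternatives, and tests were checked on simulated data. A pseudocount of 1 was added before log2. Positions and exon overlaps are from the Ensembl annotation.

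The paper names 3 sets of RNA preparations and the labels 4 replicates per genotype, and all 8 libraries were used. Deviations of same-numbered libraries from genotype means correlated (r 0.44 to 0.65), as did those of other libraries of the same set (mean 0.57), so the replicate block was also fitted. The genes named were the 10 members, list genes called in a test (the 8 with the lowest adjusted p), *to*, *Slob* and *Pdfr*, and the 3 genes most like *tim* and *Clk*; other list genes were named after their values were seen. Members and lists were chosen with earlier results of these data known.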

Additional observations from a re-analysis of the deposited data

Results flagged for a closer look

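In edgeR's interaction test with Benjamini-Hochberg adjustment, the genotype effect differed between the sets of replicates for 6.93% of all genes. The 9 given here are the called clock genes and, from the lists by role, the called genes with the lowest adjusted p. From these lists *sgg* and *dysc* were also called, at higher adjusted p. As the genotype effect (log2, Top3b26 less w1118) in replicates 3 and 4 less that in replicates 1 and 2, the value was 1.68 for *per*, 1.36 for *tim*, 1.14 for *vri*, 0.63 for *Pdp1* and -0.69 for *cry* among the clock genes. It was 2.13 for *Usp8*, 2.27 for *norpA*, 1.31 for *Slob* and -1.07 for *Ugt35b* among the listed genes. The values of all 4 groups of libraries are given above. The test uses 2 libraries in each group, of which the 2 labelled Top3b26 in replicates 1 and 2 had low photoreceptor RNA, and the part of that in the differences was not tested.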

How the results depend on the processing

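The calls of *per*, *tim*, *vri*, *Clk*, *cry* and *Pdf* between sets held in each of 8 fits that left out 1 library, as did the interaction calls of *per*, *tim* and *vri*. Counts over all genes moved more. The genotype test called 88 genes, and 232 with DESeq2, 368 with the replicate block, 539 with set as a term, 1020 in replicates 1 and 2 alone, 722 in replicates 3 and 4 alone, 27 with both Top3b26 libraries of replicates 1 and 2 left out, 154 with both w1118 libraries of replicates 3 and 4 left out (these added after the data were seen) and 42 to 61 with 1 library left out. It called 4 clock genes in replicates 1 and 2 alone and 2 without w1118 replicates 3 and 4. With library totals 42.5% of its called genes were higher in Top3b26, against 27.3%. The set test called 1792 genes, and 3425 without a fold threshold. The share of its calls that were higher in replicates 3 and 4 was 66.0%, and 40.3% with library totals and 51.6% with upper-quartile factors, which moved the median of all genes to -0.18 and -0.12. The interaction test called 436 to 855 genes and 3 to 5 clock genes with 1 library left out (main values 668 and 5).

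Only uncalled genotype and set values changed sign. Genotype values were 0.011 for *cyc* and 0.059 for *cry* with limma voom, and 0.086, 0.115 and 0.011 for *cyc*, *cry* and *Pdf* with library totals. *cry* was 0.064 with the replicate block, 0.061 with set as a term, 0.41 in replicates 1 and 2 alone and 0.225 with both Top3b26 libraries left out, where *Clk* was 0.34. With both w1118 libraries of replicates 3 and 4 left out *Clk* was 0.60 and *cry* 0.70. In replicates 3 and 4 alone *per* was 0.55, *tim* 0.14, *cyc* 0.14, *vri* 0.21, *cwo* 0.027 and *dbt* 0.095. Set values of *Pdp1* were -0.081 with library totals, -0.016 with upper-quartile factors, -0.25 in w1118 alone and -0.25 with both Top3b26 libraries left out, and in Top3b26 alone, as without both w1118 libraries of replicates 3 and 4, *cwo* was 0.15 and *dbt* 0.20. With 1 library left out, genotype values ran from -0.55 to 0.035 for *Clk*, -0.16 to 0.15 for *cyc*, -0.22 to 0.20 for *cry* and -0.38 to 0.13 for *Pdf*, and set values from -0.024 to 0.19 for *Pdp1*, -0.12 to 0.029 for *cwo* and -0.082 to 0.050 for *dbt*. The cause of these changes was not tested. In the genotype and interaction tests the replicate block changed no call of a clock gene other than that of *Pdp1* in the interaction test. The set difference has no blocked fit, since each replicate number lies in 1 set.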
